A study of Mus musculus with 6 samples.

Results

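Of the 14610 probe sets tested, 2615 carried no gene symbol in the platform annotation, 11229 carried 1 symbol and 766 carried several. The probe sets without a symbol, called members here, were taken as those whose identifier lay at or above the lowest annotated one (10344637) and which had no symbol there. The 5610 probe sets with lower identifiers, a block of controls, were left out of the table's 20220. A probe set is a group of short probes on the array that is summarised into 1 value, and all values below are log2 of the deposited intensity. With no symbol, a member is described by its identifier and by the nearest probe sets with 1 symbol on each side in identifier order. Identifier order followed the genome in part, since 92.4% of 11183 adjacent pairs of 1-symbol probe sets had their genes on the same chromosome in RefSeq, and 2192 members (83.8%) had both flanks on the same chromosome. A flanking gene is therefore a landmark for a member and not its name.

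The arrays measured total RNA of LKS-Slam cells, a sorted mouse bone marrow population rich in hematopoietic stem cells. The group labelled Zeb2-KO had 3 arrays from Zeb2 fl/fl Mx1-Cre mice, in which Mx1-Cre, a recombinase under an interferon-inducible promoter, removes floxed Zeb2 in marrow and in other tissues that respond to interferon. The WT group had 3 arrays from WT mice, for which the labels name no Cre. Mice of both groups were given pIC, which induces interferon, when 6 weeks old, and cells were taken after 8 further weeks, at 14 weeks. The labels call the arrays biological replicates and do not say whether a sample pooled animals. The comparison sets cells meant to have lost Zeb2, a transcriptional repressor with zinc fingers, against cells that kept it.

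Gene arrays carry many probe sets for transcripts that lack a named gene. Such transcripts include long noncoding RNAs, small nuclear and nucleolar RNAs, gene segments of the antigen receptors, members of repeated gene families, and predictions that later annotations dropped. Small nucleolar RNAs guide the modification of ribosomal RNA and are mostly cut out of introns of host genes. Antigen receptor segments are joined in lymphocytes, so signal over them in a stem cell gate is of interest for the other cells a sort may hold.

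Zeb2 itself, at 7.79, 9.13 and 8.96 in the Zeb2-KO-labelled arrays and 6.58, 7.51 and 7.34 in WT, lay higher in the group named for its loss, so every direction below is that of the labels. The interquartile range of log2 values per array was 2.11 ± 0.28 in the Zeb2-KO-labelled arrays and 1.79 ± 0.22 in WT (SD, n = 3), and over the members alone it was 2.15 ± 0.039 against 2.01 ± 0.19. Array means of 4 marker lists did not overlap between groups, while those of the sorted gate, stem cell, T cell and granulocyte lists did. In the gate, Kit and Slamf1 lay higher in the Zeb2-KO-labelled arrays, and Cd48 and Cd34 lower. Those of 8 measured of 9 listed B cell markers ran from 6.41 to 7.47 in the Zeb2-KO-labelled arrays and from 7.55 to 8.34 in WT. Those of 5 of 7 monocyte and dendritic cell markers ran from 7.66 to 8.32 and from 8.39 to 8.96. The 5 measured were Cd74, H2-Ab1, H2-Eb1, Ctss and Irf8, without Csf1r and Itgam, and are not particular to those cells. The list means of the 5 megakaryocyte and platelet markers (8.22 to 9.06 against 6.90 to 7.71) and of 3 of 6 erythroid markers (8.45 to 8.58 against 7.24 to 7.76) lay the other way, with 4 of 5 and 3 of 3 markers higher. No marker of these lists passed the test, and the part of these cell types in the differences of the members was not tested. In sorted bulk samples, fewer cells of a type and less RNA per cell cannot be told apart.

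Of the members, 1 (0.0382%) passed an adjusted p of 0.05, where 2 of all 14610 probe sets tested (0.0137%) passed. Probe set 10470911 lies in identifier order between Set, which encodes a histone chaperone, and Tbc1d13, which encodes an activator of Rab GTPases, both on chromosome 2. It measured 8.24, 8.08 and 7.95 in the Zeb2-KO-labelled arrays and 3.70, 3.28 and 3.66 in WT. The lowest Zeb2-KO-labelled array stood 4.24 above the highest WT array, and the spread within either group was small, with 8.09 ± 0.15 against 3.55 ± 0.23 (SD, n = 3). It lay 23.4-fold higher in the Zeb2-KO-labelled arrays, a log2 difference of 4.55 (SE 0.28, limma adjusted p = 8.24e-05). Its WT values were dim, where the lowest mean level of all probe sets tested was 2.79. Without detection calls these may be background, so the size of the fold is uncertain. With the replicate number as a block 10470911 did not pass (limma adjusted p = 0.0882), at the same difference and a smaller SE of 0.17. That fit has fewer residual degrees of freedom, and 0 of all probe sets passed in it.

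The probe sets around it were flat. Set measured 5.44, 4.73 and 5.21 against 5.34, 5.27 and 5.36 in its nearest probe set, a difference of -0.20, and -0.034 in its other one. Tbc1d13 differed by -0.021. The member between Set and the called one, 10470909, measured 7.78, 8.74 and 8.77 against 8.47, 8.40 and 7.82, a difference of 0.20 (SE 0.35, adjusted p = 0.774). Of the 5 probe sets in this stretch, 10470911 alone had groups that did not overlap.

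Below an unadjusted p of 0.05 lay 164 members (6.27%), against 1025 of all probe sets tested (7.02%), with 98 higher (3.75%, against 5.69%) and 66 lower (2.52%, against 1.33%). A descriptive rule, an unadjusted p under 0.01 and a difference of at least 1.5-fold, took 40 members (1.53%), against 228 of all probe sets (1.56%). By direction these were 29 higher members (1.11%, against 1.35% of all) and 11 lower ones (0.421%, against 0.212%). Among probe sets with 1 symbol the same rule took 158 higher (1.41%) and 18 lower (0.16%). The share of members past the rule was thus near that of the whole table, while the split by direction was 29 to 11 in members and 158 to 18 in probe sets with 1 symbol. The count of 40 rests in part on single arrays, since leaving out Zeb2-KO replicate 2 gave 25, Zeb2-KO replicate 1 gave 70 and WT replicate 2 gave 72, where 0.794%, 2.48% and 3.92% of all probe sets passed. The adjusted count, 1 member, was 2 of 5 probe sets called without Zeb2-KO replicate 1, and 5 of 10, 4 of 18 and 5 of 9 when WT replicates 1, 2 and 3 were left out in turn.

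Both groups stood wholly apart, with no overlap of their values, in 343 members (13.1%), against 13.2% of all probe sets tested. Of these, 125 lay higher in the Zeb2-KO-labelled arrays (4.78%, against 6.9% of all) and 218 lower (8.34%, against 6.26%). In 833 members (31.9%) the difference was above 0, against 44.6% of all. The median difference was -0.21 over the members, with quartiles of -0.39 and 0.16, and -0.089 over all probe sets. Leaving out Zeb2-KO replicate 2 gave a median of -0.12 over the members, leaving out WT replicate 1 gave -0.13, and leaving out Zeb2-KO replicate 1 gave -0.32. With each array's interquartile range as a covariate it was 0.0024, and that of all probe sets was -0.0067. That range came from these same values and was wider in the Zeb2-KO-labelled arrays (2.11 against 1.79). With 3 arrays per group, such a fit cannot tell the spread of the arrays from the group.

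Members were spread over all levels, with 926, 643, 542 and 504 of them in the 4 quartiles of the mean level from dim to bright. In the dimmest quartile their median difference, -0.26, lay beside that of probe sets with 1 symbol, -0.25, and in the next quartile the values were -0.21 and -0.20. In the upper quartiles they parted, at -0.19 for members against 0.11 for 1-symbol probe sets in the third and -0.029 against 0.31 in the brightest. Of the brightest probe sets, 47.8% of members and 77.1% of those with 1 symbol lay higher in the Zeb2-KO-labelled arrays. Groups did not overlap in 41 of the 504 brightest members with higher and in 39 with lower values, against 345 and 52 of 2807 with 1 symbol. Of all 3653 probe sets in that quartile, 417 were higher and 95 lower without overlap. After quantile normalization the bright members still lay below the bright 1-symbol probe sets, at -0.24 against 0.11. With the array spread as a covariate, under the limit given above, the gap was not seen, at 0.016 against 0.0066. These shares are descriptions, and the difference between the classes was not tested.

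The 10 higher members named next had the smallest unadjusted p among those at or above the median level of all probe sets, with a difference of at least 1.5-fold and no overlap between groups. They came from 54 such members, and none passed the test. How many of all probe sets meet this rule was not counted, so 54 gives only the size of the pool. Probe set 10435787 lies between both probe sets of Zbtb20, a zinc-finger repressor gene on chromosome 16. It measured 9.73, 8.20 and 9.39 in the Zeb2-KO-labelled arrays and 4.50, 6.72 and 4.88 in WT, a difference of 3.74 (SE 0.57, limma adjusted p = 0.150). Zeb2-KO replicate 2 and WT replicate 2 were the arrays nearest to the other group. It passed when any 1 WT array was left out, at 3.30, 4.42 and 3.49 without replicates 1, 2 and 3 of WT in turn (adjusted p = 0.0282, 0.00474 and 0.0329). It did not pass when Zeb2-KO replicates 1, 2 and 3 were left out in turn (adjusted p = 0.261, 0.114 and 0.111) or after quantile normalization (adjusted p = 0.709), and over all alternatives adjusted p ran from 0.00423 to 0.972. Zbtb20 differed by only -0.045 and -0.26 in its own probe sets.

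Probe set 10476104 lies between Nop56, which encodes a core protein of small nucleolar particles, and Snord57, a small nucleolar RNA gene. It measured 7.76, 7.46 and 8.33 against 6.50, 6.00 and 6.18 in WT, a difference of 1.63 (SE 0.32, adjusted p = 0.331). The neighbours lay apart from each other. Nop56 differed by 0.90, with overlap between groups, whereas Snord57 measured 8.68, 8.38 and 8.74 against 10.01, 9.22 and 10.06, lower in every Zeb2-KO-labelled array. Snord57 is thus at the side of a member with the opposite direction, and neither passed the test.

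Beside Knl1, a kinetochore scaffold gene, probe set 10474902 measured 7.85, 8.36 and 8.47 against 5.93, 7.09 and 6.48, a difference of 1.73 (SE 0.35, adjusted p = 0.331). Between the olfactory receptor genes Olfr66 and Olfr64, which RefSeq lists next to the beta-globin cluster on chromosome 7, probe set 10566281 measured 8.89, 9.41 and 8.32 against 6.02, 8.17 and 6.74 (difference 1.90, adjusted p = 0.563). The olfactory receptor probe sets themselves measured 4.25 to 4.90 and 4.59 to 5.71 over all arrays. On chromosome X, between the microRNA gene Mir465 and Ids, which encodes a lysosomal sulfatase, probe set 10604897 measured 9.24, 8.78 and 8.01 against 4.61, 7.56 and 6.73 (difference 2.38, adjusted p = 0.563). WT replicate 1 lay 2.12 below every other array there.

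The other 5 differed by 0.99 to 1.51. Probe set 10496822, between Ctbs and Ttll7, had a tight WT group, with 6.84, 6.91 and 6.82 against 7.82, 7.99 and 8.71 (difference 1.32, adjusted p = 0.536). Probe set 10476941, beside Cst7, the cystatin F gene, differed by 1.51 and 10417302, between Esd and Pdhb, by 1.26. Probe set 10525553, between Wdr66 and Lrrc43, differed by 1.40, with only 0.012 between the lowest Zeb2-KO-labelled array and the highest WT array. Probe set 10476617, between Macrod2 and Snrpb2, a gene of a U2 small nuclear particle protein, measured 7.67, 7.46 and 7.71 against 6.26, 6.55 and 7.06, a difference of 0.99. Over the 10, adjusted p ran from 0.150 to 0.606.

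The 10 lower members were taken by the same rule from 31, a pool likewise not counted over all probe sets, and differed by less. Probe set 10348030, between Psmd1, a proteasome subunit gene, and B3gnt7, measured 8.50, 8.86 and 9.18 in the Zeb2-KO-labelled arrays and 10.47, 9.75 and 11.23 in WT, a difference of -1.64 (SE 0.39, limma adjusted p = 0.536). Probe set 10567863, between Nfatc2ip and Atxn2l, measured 7.03, 6.39 and 6.48 against 8.82, 7.21 and 7.81, a difference of -1.31 (adjusted p = 0.606). Both of its neighbours lay the other way, with Nfatc2ip at 6.43, 6.87 and 6.44 against 5.54, 5.56 and 6.14. Probe set 10351197, between Mettl18 and F5, the coagulation factor V gene, differed by -1.28, while Mettl18 measured 7.42, 6.80 and 6.11 against 6.01, 5.16 and 5.42.

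Probe set 10490852, between Fabp5, a fatty acid binding protein gene, and Lrrcc1, had the smallest spread of these. It measured 9.81, 9.65 and 9.64 against 10.52, 10.42 and 10.62, a difference of -0.82 (SE 0.27, adjusted p = 0.620). Groups 0.61 apart with SDs of 0.094 and 0.10 did not pass in limma, whose fit had 4 residual and 6.87 prior degrees of freedom. Probe sets 10587686 and 10595628 held the same value on every array, 8.19, 7.72 and 8.08 against 8.90, 8.77 and 9.05, and both lay beside probe sets of Gm24463, so they count as 1 measurement. Gm24463 itself ran from 4.73 to 9.37 in its probe set next to 10587686, with WT replicate 1 lowest. Probe sets 10357120 (Vps4b and Tsn), 10362536 (5930403N24Rik and Tube1), 10468448 (Cfap43 and Xpnpep1) and 10370070 (Slc5a4b and Prmt2) differed by -0.83 to -1.13. Adjusted p ran from 0.536 to 0.656 over the 10.

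Members beside small RNA genes had a wide spread more often than other members, a difference that was not tested. Of 85 distinct members directly beside a 1-symbol probe set of a small RNA gene, 12 (14.1%) had a pooled within-group SD above 1, against 148 of 2432 other distinct members (6.09%). Of 219 distinct probe sets of small RNA genes with a symbol 30 (13.7%) did, against 3.46% of the other 1-symbol probe sets. Probe sets 10586170 and 10586174, chosen after their values were seen, lie between the small nucleolar RNA gene Snord16a and Snapc5. They measured 4.01, 5.54 and 5.69 against 3.28, 3.18 and 3.12, and 4.82, 7.23 and 5.83 against 3.03, 4.41 and 3.70. Snord16a itself measured 4.64, 8.53 and 8.46 against 5.22, 5.96 and 5.84, so Zeb2-KO replicates 2 and 3 were its highest arrays too, and Zeb2-KO replicate 1 was the lowest of its group in all 3. The differences of the members, 1.89 and 2.24, did not pass (adjusted p = 0.439 and 0.536).

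Stretches with several members in a row allow more than 1 measurement of a place. Members formed 1932 runs with no symbol-bearing probe set between them, of which 1504 held a single member and 20 held 5 or more, with 182 members in those 20. Differences of adjacent members had a Pearson's r of 0.20 over 672 pairs and of 0.51 over 144 pairs in which both were at or above the median level. For a member beside a 1-symbol probe set r was 0.078 over 3562 pairs, and for adjacent 1-symbol probe sets of different genes 0.086 over 8612 pairs. These are correlations across probe sets of the same 6 arrays, which are not independent points.

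A run of 18 members, 10598013 to 10598083, stood between Ccr1l1 and a probe set annotated to ND6, a subunit of respiratory complex I encoded by mitochondrial DNA, and Acsm2. In it 12 members lay higher and 6 lower, and 4 were higher without overlap, against 6.9% of all probe sets tested. The median difference was 0.27, and it was 0.0089 without Zeb2-KO replicate 1, which was the highest array in many of these members, while a fit with array spread as covariate gave 0.88. Probe set 10598071 measured 6.23, 4.83 and 4.52 against 3.17, 3.81 and 3.75 (difference 1.62, adjusted p = 0.563). Probe set 10598081 stood at 7.19 ± 0.45 against 6.12 ± 0.47 (SD, n = 3), without overlap (difference 1.07, limma adjusted p = 0.620). The brightest of the run, 10598059, lay between 11.51 and 12.29 on all arrays and differed by -0.026.

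A run of 7 members, 10417286 to 10417366, looked at after its values were seen, lay inside a family of predicted genes on chromosome 14 around Gm3411, between Esd and Pdhb. All 7 lay higher in the Zeb2-KO-labelled arrays, 6 of them without overlap (6.9% of all probe sets tested were higher without overlap), with a median difference of 0.82. The median of the run was 6.82, 7.05 and 7.83 in the Zeb2-KO-labelled arrays and 6.22, 6.45 and 6.43 in WT, so Zeb2-KO replicate 3 was highest, and the median difference was 0.55 without it. It was 0.75 in the fit with array spread as covariate, 0.82 after quantile normalization and 1.32 with array weights. The largest differences were 1.39 in 10417366 and 1.26 in 10417302 (adjusted p = 0.606 and 0.602). Esd and Pdhb, the named genes on either side, differed by 0.38 and 0.13 with overlapping groups. Probes to a repeated family may measure the same transcripts, so these 7 are not 7 separate genes.

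The other long runs showed smaller or less steady differences. Of all members, 31.9% lay higher, with a median of -0.21. The longest, 40 members from 10608635 to 10608713 at the end of the table, had a median of -0.19, with 15 higher and 25 lower, 1 higher and 2 lower without overlap, where 6.9% and 6.26% of all probe sets tested were. In it probe set 10608711 measured 11.73, 8.51 and 11.52 against 11.69, 8.86 and 11.15, low in replicate 2 of both groups. A run of 15 between Ptprf and Cdc20 had 13 lower members and a median of -0.23 (-0.094 without Zeb2-KO replicate 2). A run of 10 between Slc26a11 and Rnf213, which encodes an interferon-inducible ubiquitin ligase, had 9 higher members and a median of 0.45, which was 0.12 without WT replicate 1, and -0.15 in the fit with array spread as covariate. A run of 8 after Igsf23 had 8 lower members and a median of -0.55, and -0.24 without WT replicate 3. Its members were dim, with mean levels of 3.88 to 4.98. In the dimmest quartile 21.3% of members lay higher, with a median of -0.26. Another run of 8, from 10582882 to 10582918, had a median of -0.34, which was 0.068 in the fit with array spread as covariate, and leaving out Zeb2-KO replicates 1, 2 and 3 in turn gave -0.67, -0.21 and -0.21.

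By the chromosome of their flanks, 162 members lay on chromosome 2, and 6 of them (3.70%) passed the descriptive rule upwards, against 1.11% of all members, with 0 lower. Of 891 probe sets on chromosome 2 with 1 symbol 13 (1.46%) did, against 1.41% of all of them. Chromosome 3 was close, with 3 of 94 members (3.19%) higher and 0 lower, and chromosome 14 had 3 of 125 (2.40%) higher and 1 lower. Without overlap, 13 members lay higher and 13 lower on chromosome 2. On chromosome 13 these were 13 and 7 of 95, and on chromosome 14 16 and 10 of 125 (6.9% and 6.26% of all probe sets tested). Chromosome 2 was singled out after its values were seen, and differences between chromosomes were not tested. The 6 on chromosome 2 are 10470911, 10476104, 10474902, 10476941 and 10476617, described above, and 10479456. The last, between Col9a3 and Gid8, measured 3.80, 6.02 and 6.17 against 3.75, 3.05 and 3.55. Zeb2 lies on chromosome 2 as well, as does Fap, the other probe set past the adjusted threshold, at 8.71 ± 0.13 against 5.46 ± 0.26. Of 116 members on chromosome X, 1 passed the descriptive rule, and their median difference was -0.22.

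By the nearest 1-symbol probe sets on each side, 4 members lay between genes of chromosome Y. Probe sets with several symbols were not used as flanks, so further members may lie on that chromosome. Probe set 10608138, between Uty and Sry, measured 7.87, 4.20 and 4.38 in the Zeb2-KO-labelled arrays and 8.05, 4.27 and 4.42 in WT, so replicate 1 of each group stood over 3 log2 units above the rest. The Y-linked translation factor gene Eif2s3y was also highest in replicate 1 of each group, with 6.46, 3.26 and 3.10 against 5.20, 3.23 and 3.38, and Kdm5d, a Y-linked histone demethylase gene, was also highest in those arrays. The other 3 Y-flanked members had no such gap. Probe set 10608087 was highest in replicate 1 of each group, with 5.09, 4.86 and 4.50 against 5.73, 5.40 and 5.02. Probe set 10608136 measured 7.69, 6.99 and 7.22 against 7.79, 7.87 and 7.77, and 10608085 lay between 6.43 and 7.32. Xist, the RNA of X inactivation, was lowest in the same pair of arrays at 8.15 and 9.70, against 10.70 to 11.09 in the other 4. Without both arrays labelled replicate 1, 10470911 differed by 4.55 and the descriptive rule took 60 members, where 1.83% of all probe sets passed.

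Immunoglobulin stretches held 17 members between probe sets of immunoglobulin genes, 13 in the heavy chain locus and 4 in the kappa light chain locus. These leave out 10545190 of the kappa locus, described below, which borders Rprl1 (difference -3.08). In the heavy chain locus 12 of 13 lay lower in the Zeb2-KO-labelled arrays, with a median of -0.31, and in the kappa locus 4 of 4, with a median of -0.52. Most members lay lower in any case. Of all members 31.9% lay higher, with a median of -0.21, and of those in the dimmest quartile 21.3%, with a median of -0.26. Of all probe sets tested 44.6% lay higher. The probe sets with immunoglobulin symbols lay lower in 7 of 8 and 12 of 13. Of the 17 members, 1 passed the descriptive rule, which 1.56% of all probe sets tested passed, and none the adjusted threshold of limma. That one, 10403036, between Igha and Ighg3, measured 3.50, 3.72 and 3.64 against 4.71, 4.39 and 6.22 (adjusted p = 0.602). B cell markers, with the list means given above, were lower in 8 of 8 measured, with none past the adjusted threshold. Intensities of this kind have no true zero, so none of these markers can be called absent. Their part in the values of these members was not tested.

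The member with the largest within-group spread, 10545190, lay in the kappa locus next to Rprl1, an RNase P RNA-like gene. It measured 2.98, 3.31 and 2.93 against 3.71, 3.26 and 11.51, so WT replicate 3 alone stood 7.81 above every other array. Of 13 kappa probe sets with a symbol, WT replicate 3 was highest in 9 and WT replicate 1 in 3, with 10545184 at 11.36 and 10545187 at 9.65 in WT replicate 3 and at most 7.26 and 5.58 in the others. In the heavy chain locus WT replicate 3 was highest in 6 of 13 members and WT replicate 1 in 5. Among its 8 probe sets with a symbol, WT replicate 1 was highest in 6 and WT replicate 3 in 1. Some members there differed from this. Probe set 10403023 was highest in Zeb2-KO replicate 1, at 6.08, and lay from 3.66 to 4.26 elsewhere. Probe set 10403006 was high in WT replicate 3 (6.74) and in Zeb2-KO replicate 1 (5.91), and the other 4 arrays lay from 3.65 to 4.27.

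Values carried by 1 array were more frequent among members. In 36 members (1.38%), or 28 of 2515 distinct value profiles (1.11%), 1 array lay at least 2 log2 units above the other 5, against 30 probe sets with 1 symbol (0.267%). The 28 were spread over all arrays, with WT replicate 3 the high array in 8, WT replicate 1 in 6, Zeb2-KO replicate 3 in 5 and each other array in 2 to 4. An array as far below the other 5 was found in 10 members (0.382%) and in 56 probe sets with 1 symbol (0.499%), of which 47 were low in WT replicate 1. A pooled SD above 1 was found in 218 members (8.34%), or 159 distinct profiles (6.32%), against 418 probe sets with 1 symbol (3.72%), although the median SD was alike, at 0.34 and 0.35. These comparisons of classes were not tested.

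The next largest spreads were of different kinds. Probe set 10461156, between Chrm1 and Snord22, measured 6.99, 9.95 and 9.33 against 4.25, 9.24 and 10.17, low in replicate 1 of both groups. Snord22, a small nucleolar RNA, was lowest in the same arrays, with 8.71, 9.32 and 9.62 against 6.74, 9.26 and 8.94. Probe set 10601354, between Fgf16 and Cox7b, was high in Zeb2-KO replicate 3, at 10.56, with 4.60 to 6.27 elsewhere. Probe set 10463428, between Slf2 and Sema4g, measured 9.84 in WT replicate 3 and 4.10 to 7.10 elsewhere, and 10442493, between Eci1 and Zfp598, had WT replicates 1 and 3 at 9.08 and 8.55 and the others at 3.27 to 6.74. In none of these 4 did the direction between groups stand clear of the spread, with adjusted p from 0.685 to 0.922 in 3 of them and 0.673 in 10442493.

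Some members were not separate measurements. In 31 sets, 131 members shared their values on all 6 arrays to 9 significant digits of log2, which leaves 2515 distinct profiles, and none of these sets held a probe set with a symbol. The largest held 50 members, at 7.44, 6.05 and 5.77 against 5.77, 4.76 and 7.04, with overlapping groups. A set of 3 measured 9.91, 7.82 and 7.41 against 4.40, 8.21 and 5.95, and a set of 4 measured 4.88, 9.56 and 7.08 against 5.08, 4.97 and 5.81. The descriptive rule took 39 distinct profiles among the 40 members.

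The brightest members had overlapping groups. Probe set 10353061, between Cops5, a signalosome subunit gene, and Arfgef1, had the highest mean and measured 13.18, 12.22 and 12.81 against 13.08, 12.41 and 12.09. The next 4, 10347931, 10598059, 10578681 and 10530223, differed by -0.18, -0.026, -0.29 and -0.025 (limma adjusted p from 0.684 to 0.970). At the lower end of the identifiers, the first member, 10344705, measured 7.27, 7.48 and 7.79 against 8.20, 8.01 and 8.78, and the nearest probe set left out as a control, 10344618, measured 3.39, 3.52 and 4.14 against 3.54, 3.27 and 4.30.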

How the data were processed

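The authors deposited 1 intensity per probe set and array, and RMA is named in the submitters' processing notes. Which version, later scaling and genome build were used is not given in the sources used here. The values are linear by their range, so log2 was taken. The deposited table gives no detection calls, so whether dim values lie above background was not analysed here. Groups were taken from the titles. The fit used limma 3.58.1 in R 4.3.3 (lmFit, eBayes, no trend, 4 residual and 6.87 prior degrees of freedom) on all 14610 probe sets, with Benjamini-Hochberg adjustment over all of them at 0.05, and was tested on simulated data. The number of arrays, 3 per group, limits the precision, and p-values measure the spread between these samples only. Names and chromosomes of flanking genes came from a RefSeq table of assembly GRCm38.p6.

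Members and lists were chosen with earlier results of these data known. Members named are those past the threshold, the 10 higher and 10 lower by smallest p (level at or above the median, 1.5-fold, no overlap), the 5 brightest, the 5 of largest spread, those at the identifier limit, the 6 longest runs and those between chromosome Y genes; any others were picked with their values in view. Alternatives left out dim probe sets or used quantile normalization, centring, a trended and robust prior, array weights, the replicate block, the array spread as a covariate, the control block included, and each array left out; identical probe sets counted once and both arrays labelled replicate 1 left out were added after seeing the data. Another background correction was not run.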

Additional observations from a re-analysis of the deposited data

How the results depend on the processing

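Every alternative kept the direction of the called member and of the 20 others named for their differences, in 334 values, with 22 calls gained, all but 3 of them with array weights, and 1 lost. The adjusted count of 1 member was 0 with dim probe sets left out (limma, 81 at an unadjusted p under 0.05), which removes the called member by its level. It was 0 with the replicate block (477 at an unadjusted p under 0.05). The share of all probe sets below an unadjusted p of 0.05 was not counted in those fits, so 81 and 477 are not results about the members. With array weights, whose estimate did not converge, the adjusted count was 161 (6.69% of all probe sets). It was 1 to 5 with 1 array left out (2 to 18 of all probe sets). The descriptive count of 40 was 12 with dim probe sets left out (1.51% of all probe sets fitted), 307 with array weights (12.8%), 19 with the array spread as a covariate (0.938%), 14 with the control block included (1.06%) and 25 to 72 with 1 array left out (0.794% to 3.92%). The median of -0.21 became 0.0024 with array spread as covariate. It ran from -0.32 to -0.12 with 1 array left out. The causes were not tested, except where fewer probe sets were fitted. The labels state no pairing by replicate number, and the main fit used none. Deviations of same-numbered arrays correlated at 0.36, 0.41 and 0.047, although each of the 6 arrays correlated best with its own number, and the descriptive count was 57 with the block (2.80% of all). Dim members limit what these arrays show.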
